A study of Mus musculus with 6 samples.

Results

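The 43 collagen genes of the deposited table were taken as the rows whose symbol reads Col, a type number, a and a chain number, out of 16729 genes in all. RefSeq holds 44 mouse genes of that form, and Col10a1 was not analysed here. They were placed in 3 groups by the structure their chains build, namely 11 fibrillar, 8 basement membrane and 24 other collagens. The tumors came from mG7080 cells, a gliomasphere line from mouse gliomas with p53 and Nf1 among the altered genes, and every group carried these alterations. The cells were injected into brains of female C57BL/6 hosts that were Esm1 wild type (WT, 3 libraries) or Esm1 knockout (KO, 3 libraries), 6 to 8 weeks old by the protocol or 8 to 12 weeks by the reporting summary. Only the host lacked Esm1, which encodes the secreted proteoglycan Endocan, while the injected cells of this single line kept the gene. Bulk RNA of frozen tumor was sequenced, so each library mixes tumor and host transcripts, and fewer cells of a type and less RNA per cell cannot be told apart.

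A collagen is built from 3 chains wound into a triple helix, which requires a glycine at regular spacing (Gly-X-Y). Fibrillar collagens have a long uninterrupted helix and assemble into the fibers of connective tissue, which is scarce in brain outside vessels and meninges. Type IV collagen forms the sheet of the vascular basement membrane. Type VI forms beaded filaments, fibril-associated types such as IX and XII decorate fibers, and transmembrane types such as XXV sit at the cell surface.

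The difference between the groups can be read in the coding sequence. Both stretches below cover 20 codons of a GENCODE transcript (GRCm38), 5′ to 3′, with every glycine codon in capitals. Col1a1, residues 468 to 487, keeps the spacing of a fibrillar chain, and Col4a1, residues 154 to 173, crosses one of the breaks typical of type IV.
Col1a1: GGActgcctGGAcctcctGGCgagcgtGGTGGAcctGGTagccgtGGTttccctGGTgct
Col4a1: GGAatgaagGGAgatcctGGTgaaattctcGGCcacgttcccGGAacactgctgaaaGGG
The longest unbroken run of Gly-X-Y triplets was 216 to 344 triplets in the 11 fibrillar chains, with a median of 338. It was 30 to 66 in the basement membrane group, with a median of 41.0, and 23 to 113 in the other group, with a median of 48.5. The 6 type IV chains carried 22 to 27 separate runs each.

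The type IV genes lie in pairs. On GRCm38, Col4a1 (chr8:11198423-11312826, minus strand) and Col4a2 (chr8:11312805-11449287, plus strand) are transcribed away from each other and the annotated genes overlap by 22 bases at their starts. Their RefSeq upstream windows are shown because the annotated starts lie 21 bases apart, so each window lies inside the annotated gene of the partner. Each gives the 250 bases before the start on the gene's own strand (chr8:11312827-11313076 for Col4a1, chr8:11312555-11312804 for Col4a2), and capitals mark the 28 bases before each start that lie in both 300-base windows.
Col4a1 upstream: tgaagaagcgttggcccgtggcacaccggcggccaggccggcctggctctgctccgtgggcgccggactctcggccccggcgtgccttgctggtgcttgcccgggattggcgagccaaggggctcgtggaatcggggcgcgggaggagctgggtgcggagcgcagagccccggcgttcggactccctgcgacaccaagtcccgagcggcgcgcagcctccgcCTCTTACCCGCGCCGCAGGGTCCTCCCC
Col4a2 upstream: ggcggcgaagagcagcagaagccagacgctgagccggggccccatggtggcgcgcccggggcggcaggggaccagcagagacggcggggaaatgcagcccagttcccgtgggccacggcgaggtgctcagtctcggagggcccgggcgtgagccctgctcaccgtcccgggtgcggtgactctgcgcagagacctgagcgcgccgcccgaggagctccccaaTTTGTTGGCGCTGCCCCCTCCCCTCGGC
Col4a3 and Col4a4 on chromosome 1 are also head to head with 71 bases between them, and Col4a5 and Col4a6 on chromosome X with 1308. Col6a1 and Col6a2 lie 85161 bases apart on the same strand of chromosome 10, and Col3a1 and Col5a2 face each other tail to tail, 24614 bases apart on chromosome 1.

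Type IX genes are scattered over the genome. The windows of Col9a2 and of the first RefSeq start of Col9a1 are shown because all 3 type IX genes were among the genes called below. Capitals mark the GC box, GGGCGG on either strand, in the 250 bases before the start of Col9a2 (chr4:121039316-121039565, plus strand) and Col9a1 (chr1:24177360-24177609, plus strand). Col9a2 has 2 such boxes and Col9a1 has 0 in these bases. The RefSeq start used for Col9a2 lies 181 bases inside the gene as GENCODE annotates it, so the part of its window with both boxes is upstream of that RefSeq start only.
Col9a2 upstream: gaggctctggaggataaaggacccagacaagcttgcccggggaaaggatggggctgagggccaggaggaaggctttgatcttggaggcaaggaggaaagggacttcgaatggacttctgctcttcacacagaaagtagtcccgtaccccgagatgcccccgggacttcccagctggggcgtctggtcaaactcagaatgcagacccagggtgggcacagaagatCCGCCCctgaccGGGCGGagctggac
Col9a1 upstream: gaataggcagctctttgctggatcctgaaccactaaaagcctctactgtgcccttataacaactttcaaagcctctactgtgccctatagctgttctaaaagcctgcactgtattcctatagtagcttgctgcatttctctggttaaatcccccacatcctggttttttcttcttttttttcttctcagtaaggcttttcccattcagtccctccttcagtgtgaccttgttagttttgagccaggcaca
RefSeq windows of 300 bases were found for 34 of the 43 genes, 37 windows in all. A GC box on either strand was in 62.2% of them and in 35.7% of all 32851 windows. CCAAT was in 35.1% against 37.4%, TATAAA in 10.8% against 13.6%, and AACAAT, a core sequence of SOX factors, in 2.7% against 10.7%. These are matches of letters, each motif counted on its own.

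Library totals ran from 17632070 to 22241832 counts. Values below are CPM, counts scaled to library size with TMM factors, and log2 fold changes are KO over WT. A floor of 3 counts was 0.132 to 0.170 CPM, and no collagen gene was at 0 in any library. Summed over the 6 libraries, counts per gene ran from 66 (Col6a6) to 13065 (Col6a1), with 10 or more in every library for 39 of 43 genes, and all 43 passed the filter on low counts. Esm1 itself was at 1.18, 1.11 and 4.07 CPM in WT 1, WT 2 and WT 3, and at 0.0568, 1.06 and 0.208 CPM in the libraries labelled KO 1, KO 2 and KO 3. The library labelled KO 2 was thus near WT 1 and WT 2, so fold changes over all 6 libraries are also given without it. Proliferation markers (8 genes) summed to 990 to 1834 CPM in WT, 89.5 in KO 1, 1095 in KO 2 and 11.7 in KO 3, and neuron markers (10 genes) to 1767 to 5001 CPM in WT, 11264 in KO 1, 4282 in KO 2 and 13771 in KO 3. Oligodendrocyte precursor markers (6 genes) summed to 1653 to 1885 CPM in WT, 875 in KO 1, 2308 in KO 2 and 735 in KO 3. Their tumor and host sources cannot be told apart. Of these 6, 4 had a lower mean in KO, while Cspg5 and Sox10 had a higher one (390 and 53.5 CPM, against 320 and 39.9 in WT). None of the listed markers was at 0 in any library. The labels number the libraries of a group as tumors and name no animals, so p-values measure the spread between these libraries.

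Levels between genes were compared by FPKM, which is per length. Col9a3 had the highest mean at 29.4 FPKM over the 6 libraries, followed by Col6a1 at 27.1, Col4a1 and Col4a2 both at 13.6, Col16a1 at 12.7, Col9a2 at 12.1 and Col11a2 at 10.4. Col1a1 and Col3a1, the main chains of connective tissue fibers, were at 2.95 and 2.61. The order differed between libraries, since Col9a3 was above Col6a1 in the 3 WT libraries (29.5, 35.8 and 48.0 FPKM against 14.6, 18.1 and 21.2) and in KO 2 (50.1 against 24.9), and below it in KO 1 (8.84 against 41.5) and KO 3 (3.97 against 42.3). Col6a6 was the lowest at 0.0767.

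The make-up of the collagen transcripts differed between libraries. Summed collagen FPKM was 171, 191 and 268 in WT and 161, 261 and 156 in KO 1, KO 2 and KO 3. Summed collagen CPM, which has TMM factors and is not per length, was 839, 882 and 1240 in WT and 962, 1200 and 994 in KO. The mean of the sums was thus lower in KO by FPKM (193 against 210) and higher by CPM (1052 against 987). Type VI took 12.3%, 12.5% and 11.4% of the FPKM sum in WT 1, WT 2 and WT 3, and 31.4%, 13.1% and 34.3% in KO 1, KO 2 and KO 3. Fibril-associated types took 38.9%, 41.8% and 42.7% in WT and 19.4%, 42.3% and 16.7% in KO. In both shares KO 1 and KO 3 stood apart from the 4 other libraries and KO 2 lay beside the WT libraries. Fibrillar collagens stayed between 18.7% and 22.2% in all 6.

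**Figure D1:**
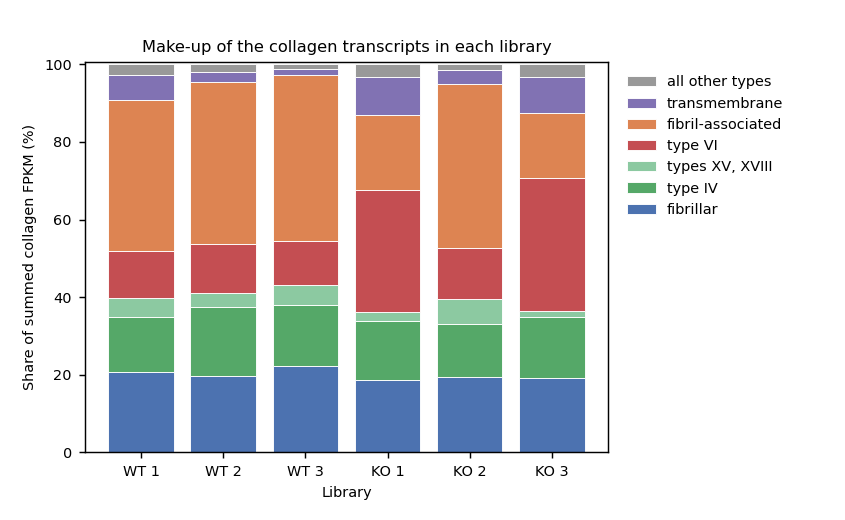
Share of the summed collagen FPKM (y axis, percent) taken by each structural class in each library (x axis). Type VI is 11.4% to 13.1% in the 3 WT libraries and KO 2, and 31.4% and 34.3% in KO 1 and KO 3.

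Over all 6 libraries, 0 of 43 collagen genes passed an adjusted p of 0.05 in edgeR's quasi-likelihood test (background 0.0% in each direction), and the lowest adjusted p was 0.18. At an unadjusted p under 0.05, 5 of 43 (11.6%) were lower in KO against 11.9% of the 16166 genes tested, and 9 of 43 (20.9%) were higher against 15.2%. On the same libraries DESeq2 called 8 collagen genes (18.6%, against 7.31% of all genes), edgeR's exact test 0 (against 0.748%) and limma-voom 0 (against 0.0%). The median log2 fold change was 0.24 for all collagens, -0.05 for the fibrillar group, -0.59 for the basement membrane group and 0.84 for the others, against -0.02 over all genes tested. Without KO 2 these medians were 0.27, -0.22, -1.01 and 0.91, against -0.02. KO and WT libraries did not overlap for 15 collagen genes. Of these, 6 of 43 were lower in KO against 14.8% of all genes, namely Col2a1, Col4a4, Col4a5, Col4a6, Col5a3 and Col28a1. The 9 others (20.9%) were higher against 12.6%, namely Col1a2, Col5a1, Col6a1, Col6a4, Col12a1, Col14a1, Col22a1, Col23a1 and Col26a1.

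Without the library labelled KO 2, the same test called 10 collagen genes lower (23.3%, background 28.3%) and 12 higher (27.9%, background 24.5%). In those 5 libraries, 13 genes were lower in KO 1 and KO 3 than in every WT library (30.2%, background 40.4%) and 13 were higher (30.2%, background 37.2%). With WT 1, WT 2, KO 1 and KO 3, the libraries of the study's own table, 5 fell (11.6%, background 13.9%) and 4 rose (9.3%, background 2.87%). The 5 were Col4a5, Col9a1, Col9a2, Col9a3 and Col18a1, and the 4 were Col6a1, Col19a1, Col24a1 and Col26a1. Of the 9, 3 of those that fell and 1 that rose also changed more than 4-fold (6.23% and 0.451% of all genes). Of these 4 libraries, leaving out KO 3 kept 1 of the 9 calls, Col9a1, and leaving out KO 1 kept 5, namely Col6a1, Col9a1, Col9a3, Col18a1 and Col19a1, in each case with the lone KO library assumed to vary like the WT ones. Leaving out WT 1 leaves a single WT library, and more collagen genes were then called, as were more of all genes. KO 2 lay within the WT range for 18 of the 43 genes, above it for 18 and below it for 7.

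**Figure D2:**
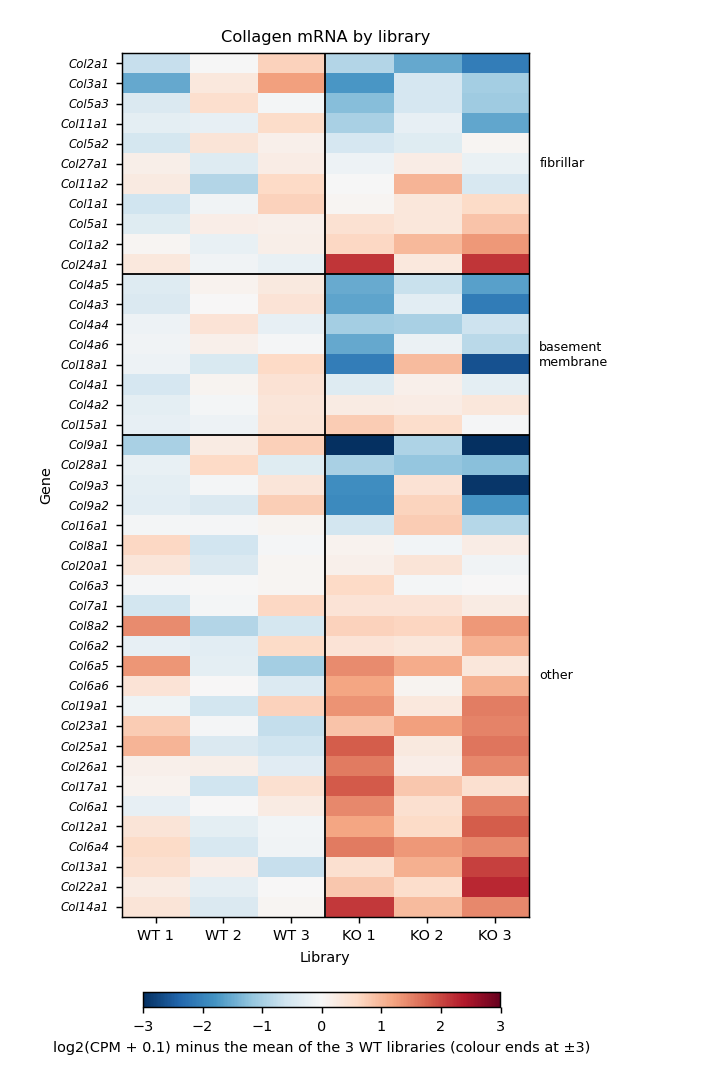
Each of the 43 collagen genes (rows, sorted by fold change within its group) in each library (columns), as log2(CPM + 0.1) minus the mean of the 3 WT libraries, blue lower and red higher. KO 1 and KO 3 share the strongest colors, and KO 2 lies within the WT range for 18 genes.

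Fibrillar collagens went in both directions. Of the 11, 6 had a lower and 5 a higher mean in KO over all 6 libraries. Without overlap, 2 were lower (against 14.8% of all genes) and 2 higher (against 12.6%). Type I collagen is a heterotrimer of both of its chains. Col1a2 was at 15.1, 12.4 and 16.5 CPM in WT 1, WT 2 and WT 3 and at 22.4, 28.8 and 36.2 in KO 1, KO 2 and KO 3. All 3 KO libraries, KO 2 included, were above all 3 WT libraries (log2 0.99 ± 0.23 SE, adjusted p = 0.18 in edgeR's quasi-likelihood test). Without KO 2 it passed at log2 1.02 (adjusted p = 0.022). Its partner Col1a1, taken up here after its values were seen, was at 7.86, 11.05 and 19.3 CPM in WT and 12.4, 14.9 and 17.7 in KO. These groups overlapped, and the ratio of Col1a1 to Col1a2 in FPKM was 0.571, 0.974 and 1.28 in WT against 0.607, 0.567 and 0.534 in KO. The exact two-sided permutation test of that ratio gave p = 0.2, where 3 against 3 libraries cannot go under 0.1.

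Col3a1, the homotrimer of vessel walls, was at 5.32, 19.2 and 36.3 CPM in WT and 4.54, 10.9 and 7.58 in KO. The WT libraries spread more than the distance between the groups (log2 -1.40 ± 0.70 SE, adjusted p = 0.21, edgeR), and without KO 2 it was at -1.72 ± 0.78 (adjusted p = 0.11). Its tail-to-tail neighbour Col5a2 was at 8.43, 15.9 and 13.6 CPM in WT and 8.63, 9.52 and 12.7 in KO, with full overlap. Fibroblast and meningeal markers, the other source of such chains, summed over 10 genes to 66.7 to 126 CPM in WT and to 117, 160 and 226 in KO 1, KO 2 and KO 3. Of these 10 genes, 1 did not overlap between the groups, higher in KO (12.6% of all genes did so), and the part of this list in the Col1a2 difference was not tested.

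The type V chains, which nucleate type I fibers, diverged. Col5a1 was at 18.4, 27.1 and 26.4 CPM in WT and 32.5, 29.7 and 42.6 in KO, with every KO library above every WT library. Col5a3 was at 11.7, 22.6 and 15.2 in WT and 6.53, 11.2 and 7.48 in KO, with every KO library below. Their log2 fold changes over all 6 were 0.55 ± 0.23 and -0.97 ± 0.34 (SE), both at an adjusted p of 0.18 in edgeR, and without KO 2 they passed at 0.67 (adjusted p = 0.043) and -1.21 (adjusted p = 0.024).

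Of the cartilage-type fibrillar chains, type XI was abundant and type II was not, at a mean of 8.55 FPKM for Col11a1 and 10.4 for Col11a2 against 1.45 for Col2a1. Col11a1 was at 61.2, 62.9 and 110 CPM in WT and 38.5, 63.3 and 25.5 in KO, and without KO 2 it passed at log2 -1.27 (adjusted p = 0.026, edgeR). Col11a2 was at 59.3, 26.9 and 74.6 in WT and 48.5, 100 and 35.0 in KO, so its highest and its second lowest value were both from KO hosts. Col2a1, the main chain of cartilage fibers, was at 5.93, 9.46 and 15.6 in WT and 5.17, 3.26 and 2.18 in KO. It did not overlap between groups, and KO 2 lay between the other KO libraries (log2 -1.55 ± 0.48 SE, adjusted p = 0.18, edgeR). Without KO 2 it did not pass either (adjusted p = 0.066).

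Col24a1, a minor fibrillar chain, showed the opposite split. It was at 3.67, 2.70 and 2.48 CPM in WT and 13.1, 3.66 and 13.1 in KO, with KO 2 just under WT 1. It rose by log2 2.04 ± 0.32 SE with WT 1, WT 2, KO 1 and KO 3 (adjusted p = 0.034, edgeR), against 1.75 ± 0.53 over all 6 (adjusted p = 0.18) and 2.17 ± 0.26 without KO 2 alone (adjusted p = 0.008). Col27a1, which shares its short-interrupted helix, was not far from 0 at log2 -0.05.

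**Figure D3:**
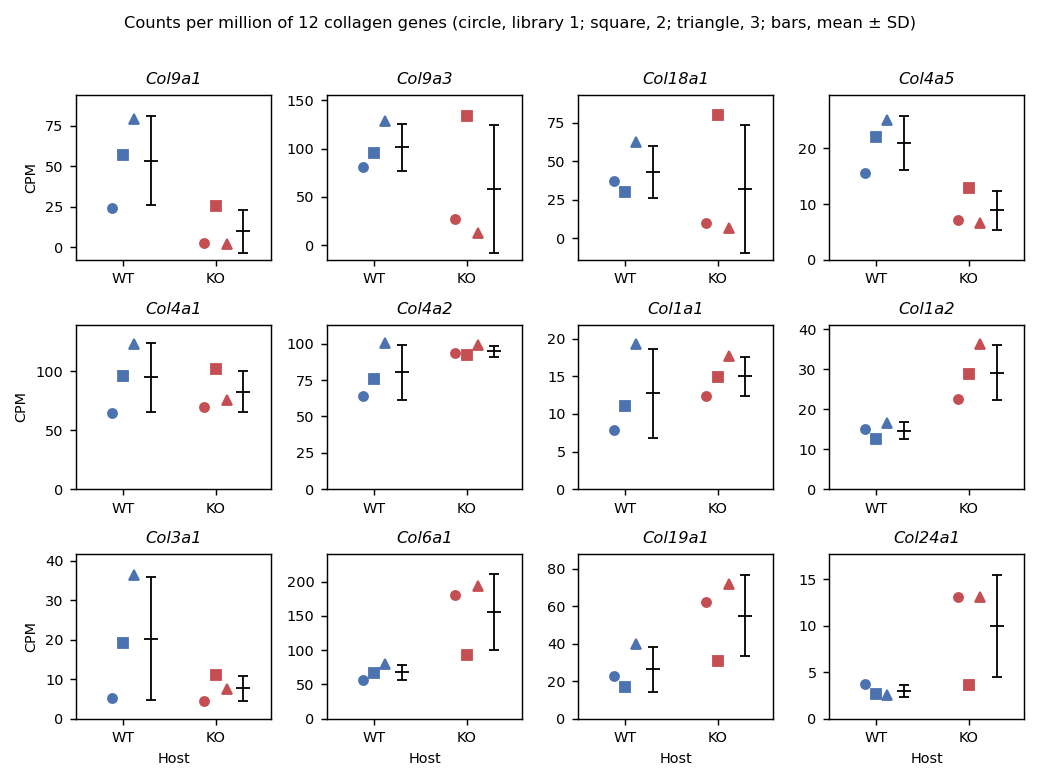
CPM of 12 collagen genes (y axes, linear, one panel each) in WT and KO hosts (x axes), with circles, squares and triangles for libraries 1, 2 and 3 and black bars for mean ± SD. The square of KO 2 lies among or above the WT points for Col9a3 and Col18a1 and with the other KO points for Col1a2.

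The basement membrane group split between its major and its minor chains. Col4a1 and Col4a2, which together form the network found in every vessel, did not separate WT from KO. Col4a1 was at 64.9, 96.5 and 123.1 CPM in WT and 70.0, 102 and 75.4 in KO (log2 -0.20 ± 0.28 SE, adjusted p = 0.59, edgeR, and -0.36 ± 0.27 without KO 2, adjusted p = 0.28). Col4a2 was at 64.0, 76.0 and 100.9 in WT and 93.4, 92.1 and 99.3 in KO (log2 0.24 ± 0.19 SE, adjusted p = 0.36, edgeR, and 0.28 ± 0.21 without KO 2, adjusted p = 0.28). Col4a2 was at 0.47 ± 0.18 with WT 1, WT 2, KO 1 and KO 3 (adjusted p = 0.10), both KO libraries lying above both WT libraries. The annotated starts of the pair lie 21 bases apart, as given above. The ratio of Col4a1 to Col4a2 in FPKM was 0.985, 1.23 and 1.19 in WT and 0.728, 1.08 and 0.738 in KO (exact permutation p = 0.2). Endothelial markers (10 genes) summed to 235 to 293 CPM in WT and 276, 254 and 208 in KO 1, KO 2 and KO 3, and mural markers (10 genes) to 324 to 432 in WT and 225, 442 and 157 in KO. Cspg4, which oligodendrocyte precursors also express, was at 192, 247 and 213 CPM in WT and 45.9, 300 and 28.5 in KO, and the 9 others summed to 132, 185 and 211 CPM in WT and 179, 142 and 129 in KO. The part of either list in these levels was not tested.

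The 4 minor type IV chains were all lower in KO on average. Col4a5 was at 15.6, 22.1 and 25.2 CPM in WT and 7.15, 12.9 and 6.59 in KO, with every KO library, KO 2 included, below every WT library. It fell by 1.45 ± 0.28 SE on the log2 scale with WT 1, WT 2, KO 1 and KO 3 (adjusted p = 0.038, edgeR), and its value was -1.24 ± 0.34 over all 6 (adjusted p = 0.18) and -1.59 ± 0.25 without KO 2 (adjusted p = 0.0094). Its head-to-head partner Col4a6 was at 5.79, 6.93 and 6.10 in WT and 2.10, 5.51 and 3.53 in KO, again without overlap, at log2 -0.75 ± 0.38 SE over all 6 (adjusted p = 0.21, edgeR) and -1.13 ± 0.31 without KO 2 (adjusted p = 0.028). Col4a3 was at 1.88, 2.59 and 3.42 in WT and 0.795, 2.03 and 0.519 in KO, and its partner Col4a4 at 1.32, 2.01 and 1.24 in WT and 0.681, 0.705 and 0.934 in KO. Col4a4 did not overlap and Col4a3 did, through KO 2. Col4a3 was at log2 -1.22 ± 0.56 SE over all 6 (adjusted p = 0.19, edgeR) and passed without KO 2 at -1.98 ± 0.43 (adjusted p = 0.016), whereas Col4a4 was at -0.97 ± 0.34 (adjusted p = 0.18) and -0.88 ± 0.39 (adjusted p = 0.10). Both lie far under Col4a5 per length, at a mean of 0.227 and 0.150 FPKM against 2.44.

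The multiplexins, basement membrane collagens with chondroitin or heparan sulfate chains, parted from each other. Col18a1, whose last domain is released as endostatin, was at 37.3, 30.2 and 62.3 CPM in WT and 9.65, 80.0 and 6.65 in KO. KO 2 was the highest of all 6 libraries and KO 1 and KO 3 the lowest. With WT 1, WT 2, KO 1 and KO 3 it fell by 2.05 ± 0.29 SE on the log2 scale (adjusted p = 0.034, edgeR), whereas over all 6 it was at -0.43 ± 0.96 (adjusted p = 0.74) and without KO 2 alone at -2.39 ± 0.39 (adjusted p = 0.0097). Col15a1 was at 6.31, 6.71 and 9.78 in WT and 12.7, 10.8 and 7.22 in KO, with overlap.

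Type IX collagen is a cartilage-type heterotrimer of 3 chains. All of its chains were lower in KO 1 and KO 3 than in every WT library, as were 40.4% of all genes. Col9a1 had the lowest fold change of the 43 genes. Col9a1 (chr1:24177610-24252684) was at 24.5, 57.0 and 79.3 CPM in WT and 2.61, 25.3 and 1.97 in KO. KO 2 was just above WT 1, and KO 1 and KO 3 were far below all others. With WT 1, WT 2, KO 1 and KO 3 it fell by 4.14 ± 0.50 SE on the log2 scale (adjusted p = 0.034, edgeR), while all 6 gave -2.42 ± 1.07 (adjusted p = 0.19) and the 5 without KO 2 gave -4.52 ± 0.59 (adjusted p = 0.008). Col9a2 (chr4:121039385-121055322) was at 28.8, 26.5 and 59.1 in WT and 9.42, 56.8 and 10.3 in KO. Col9a3 (chr2:180597790-180622189) was at 81.0, 94.9 and 128 in WT and 27.5, 134 and 13.03 in KO. Both fell with the 4 libraries, by 1.48 ± 0.21 and 2.11 ± 0.39 SE on the log2 scale (adjusted p = 0.034 and 0.036, edgeR), and over all 6 they were at -0.58 ± 0.78 and -0.80 ± 0.83. Without KO 2 alone they were at -1.93 and -2.31 (adjusted p = 0.016 and 0.010, edgeR). The ratio of Col9a1 to Col9a3 in FPKM was 0.222, 0.439 and 0.452 in WT and 0.0696, 0.138 and 0.111 in KO, with KO 2 also below every WT library. The exact two-sided permutation test gave p = 0.1, the smallest that 3 against 3 allows, and 0.2 after adjustment over the 5 chain ratios compared. The sums of the proliferation and precursor markers given above were lowest in the same KO 1 and KO 3 libraries, and the part of either list was not tested.

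Other fibril-associated chains mostly went the other way. Col16a1 was at 62.6, 63.8 and 69.3 CPM in WT and 44.1, 111 and 36.0 in KO, a tight WT group with KO 1 and KO 3 below it and KO 2 above. Over all 6 its log2 fold change was -0.03 ± 0.43 SE, and without KO 2 it passed at -0.68 (adjusted p = 0.015, edgeR). Col19a1, expressed in some neurons, was at 22.6, 16.7 and 39.7 in WT and 62.6, 30.6 and 72.01 in KO. It rose by log2 1.78 ± 0.23 SE with WT 1, WT 2, KO 1 and KO 3 (adjusted p = 0.034, edgeR), against 1.06 ± 0.44 over all 6 and 1.37 ± 0.36 without KO 2 alone (adjusted p = 0.025). Col14a1, found where fibers are dense, was at 1.46, 0.793 and 1.14 in WT and 5.11, 2.20 and 3.17 in KO, and Col22a1 at 1.55, 1.06 and 1.29 in WT and 2.33, 1.90 and 6.59 in KO. Neither overlapped between groups (log2 1.62 ± 0.43 and 1.46 ± 0.55 SE, both at an adjusted p of 0.18, edgeR), and without KO 2 both passed, at 1.87 ± 0.39 (adjusted p = 0.015) and 1.79 ± 0.50 (adjusted p = 0.029). Col12a1, named after its values were seen, was at 16.5, 10.3 and 11.96 in WT and 29.1, 18.9 and 44.8 in KO, also without overlap (log2 1.26 ± 0.36 SE, adjusted p = 0.18, and 1.53 ± 0.29 without KO 2, adjusted p = 0.012, edgeR).

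All 6 type VI genes had a higher mean in KO, by a median of log2 0.84 over all 6 libraries and 1.00 without KO 2. Col6a1 (chr10:76708792-76726168) was at 55.8, 67.0 and 79.1 CPM in WT and 180, 92.8 and 194 in KO. Every KO library, KO 2 included, was above every WT library. It rose by log2 1.61 ± 0.20 SE with WT 1, WT 2, KO 1 and KO 3 (adjusted p = 0.034, edgeR), and all 6 gave 1.21 ± 0.31 (adjusted p = 0.18) and the 5 without KO 2 gave 1.49 ± 0.17 (adjusted p = 0.008). Col6a2 was at 15.7, 14.9 and 27.5 in WT and 24.6, 23.4 and 38.6 in KO, with overlap through WT 3 (log2 0.58 ± 0.33 SE over all 6 and 0.73 ± 0.34 without KO 2, adjusted p = 0.24 and 0.12, edgeR). The ratio of Col6a1 to Col6a2 in FPKM was 3.34, 4.23 and 2.69 in WT and 6.88, 3.71 and 4.71 in KO (exact permutation p = 0.2). Col6a4, also named after its values were seen, was at 5.46, 2.59 and 3.37 in WT and 10.8, 9.17 and 9.97 in KO, so that KO 2 was near the other KO libraries (log2 1.39 ± 0.32 SE, adjusted p = 0.18, and 1.46 ± 0.36 without KO 2, adjusted p = 0.021, edgeR). Astrocyte markers (6 genes) summed to 2855 to 3546 CPM in WT and 5659, 3861 and 5185 in KO 1, KO 2 and KO 3, and their part in the type VI values was not tested. Of these 6 genes, 4 had a higher and 2 a lower mean in KO. The higher ones were Slc1a2 at a mean of 915 CPM in WT and 3262 in KO, Gja1 at 77.5 and 201, Aldh1l1 at 55.6 and 74.1, and Aqp4 at 128 and 155. The lower ones were Gfap at 1124 and 428, and Slc1a3 at 796 and 782. Without Slc1a2 the other 5, Gfap among them, summed to 2185, 2322 and 2036 in WT and 1536, 1944 and 1441 in KO.

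The 4 transmembrane collagens were likewise higher on average in KO. Col25a1, a neuronal collagen that binds amyloid and was named after its values were seen, was at 54.1, 19.7 and 17.4 CPM in WT and 92.9, 32.3 and 80.7 in KO. KO 2 was lower than WT 1, so the groups overlapped (log2 1.17 ± 0.58 SE, adjusted p = 0.21, edgeR), and without KO 2 it passed at 1.52 ± 0.51 (adjusted p = 0.048). Col23a1, named likewise, was at 13.3, 7.51 and 4.66 in WT and 14.1, 18.3 and 22.01 in KO, without overlap (log2 1.09 ± 0.41 SE over all 6 and 1.10 ± 0.46 without KO 2, adjusted p = 0.18 and 0.088, edgeR). Col13a1, found at the neuromuscular junction, was at 0.800, 0.634 and 0.298 in WT and 0.795, 1.23 and 2.54 in KO. All 10 neuron markers were higher in KO 1 and KO 3 than in every WT library, as were 37.2% of all genes, and their part in the values of Col19a1 and Col25a1 was not tested.

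Types XXVI and XXVIII, 2 short or distant members of the family, moved apart. Col26a1 was at 3.44, 3.49 and 2.38 CPM in WT and 9.25, 3.53 and 8.41 in KO, with KO 2 level with the top of the WT range. It rose by log2 1.35 ± 0.30 SE with WT 1, WT 2, KO 1 and KO 3 (adjusted p = 0.044, edgeR), against 1.18 ± 0.42 over all 6 and 1.53 ± 0.26 without KO 2 alone (adjusted p = 0.18 and 0.011). Col28a1, expressed by glia of peripheral nerves, was at 2.54, 4.55 and 2.28 in WT and 1.48, 1.28 and 1.19 in KO, and all 3 KO libraries were below WT (log2 -1.24 ± 0.36 SE, adjusted p = 0.18, edgeR, and -1.20 ± 0.42 without KO 2, adjusted p = 0.053). The 9 members not described with values in every library (Col6a3, Col6a5, Col6a6, Col7a1, Col8a1, Col8a2, Col17a1, Col20a1 and Col27a1) lay between log2 -0.05 and 1.20 over all 6, with mean levels of 0.0767 to 2.31 FPKM and a lowest unadjusted p of 0.067 in edgeR's quasi-likelihood test. Without KO 2, Col6a6 alone of the 9 passed (log2 1.28 ± 0.43 SE, adjusted p = 0.048).

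**Figure D4:**
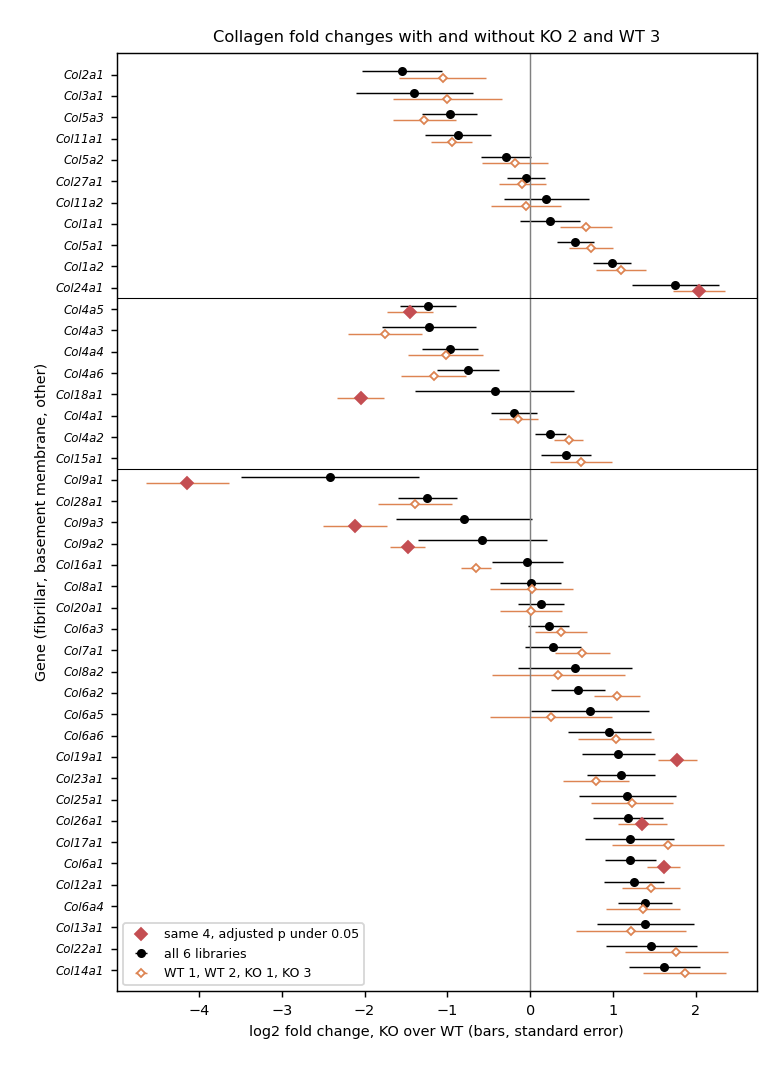
Log2 fold change KO over WT (x axis, bars SE) of each collagen gene (y axis, by group) over all 6 libraries (black circles) and with WT 1, WT 2, KO 1 and KO 3 (diamonds, filled for the 9 with an adjusted p under 0.05 in edgeR). The type IX genes and Col18a1 lie farther to the left with the 4 libraries, and Col4a1 is at -0.20 over all 6 and -0.14 with the 4.

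A collagen chain is hydroxylated and folded in the endoplasmic reticulum, exported in large carriers, trimmed of its propeptides and cross-linked. Of 48 genes for these steps, for receptors and for basement membrane partners, 36 had a lower and 12 a higher mean in KO over all 6 libraries, with a median of log2 -0.62 (-0.80 without KO 2). None passed an adjusted p of 0.05 over all 6 in edgeR's quasi-likelihood test (0.0% of all genes did). At an unadjusted p under 0.05, 14 (29.2%) were lower against 11.9% of all genes and 3 (6.25%) were higher against 15.2%. DESeq2 called 3 of them (6.25%, against 7.31% of all genes), edgeR's exact test 2 (against 0.748%) and limma-voom 0. Without KO 2, 24 of 48 (background 28.3%) were lower and 5 (10.4%, background 24.5%) higher. With WT 1, WT 2, KO 1 and KO 3, 15 (31.2%, background 13.9%) fell and 1 (2.08%, background 2.87%) rose.

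In the chaperone and export class, 3 of 8 genes fell with WT 1, WT 2, KO 1 and KO 3, against 13.9% of all genes. These were Serpinh1, Fkbp10 and Creb3l1, the last just under the threshold (adjusted p = 0.0498, edgeR). Serpinh1, which encodes the collagen chaperone HSP47, was at 150, 281 and 235 CPM in WT and 22.7, 133 and 17.5 in KO. Fkbp10, a prolyl isomerase that acts with lysyl hydroxylase, was at 33.2, 60.0 and 42.9 in WT and 8.17, 19.8 and 7.42 in KO. In both, every KO library was below every WT library, with KO 2 between. With WT 1, WT 2, KO 1 and KO 3 they fell by 3.41 ± 0.38 and 2.57 ± 0.34 SE on the log2 scale (adjusted p = 0.034 each, edgeR), and over all 6 they were at -1.94 ± 0.83 and -1.94 ± 0.46. Without KO 2 alone they were at -3.44 and -2.52 (adjusted p = 0.008 each, edgeR). Sec23a, a coat protein of export vesicles, was at 97.8, 83.2 and 85.6 in WT and 113, 85.7 and 155 in KO.

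In the hydroxylation class, 12 of 15 genes had a lower mean in KO and 5 fell with the 4 libraries, against 13.9% of all genes. P4hb, the shared subunit of prolyl 4-hydroxylase, was at 378, 647 and 554 CPM in WT and 141, 355 and 120 in KO. Crtap and Leprel4 (P3h4), partners in prolyl 3-hydroxylase and lysyl hydroxylase complexes, fell by 2.21 ± 0.41 and 1.42 ± 0.28 SE on the log2 scale, Plod2, a lysyl hydroxylase, by 1.55 ± 0.28, and Ppib, a prolyl isomerase, by 1.39 ± 0.26 (adjusted p from 0.036 to 0.039, edgeR, same 4 libraries). Leprel4 was below WT in all 3 KO libraries, at 14.99, 19.9 and 13.2 CPM against 29.3, 46.6 and 35.9. P4ha2, a catalytic subunit, lay in the other direction, at 8.38, 4.28 and 7.59 in WT and 11.8, 9.08 and 15.8 in KO, without overlap.

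Of the 3 enzymes that remove the amino propeptide, Adamts14 had a lower mean in KO, and Adamts2 and Adamts3 a higher one. Adamts14 was at 9.51, 17.8 and 16.8 CPM in WT and 0.284, 5.597 and 0.519 in KO, every KO library below WT, and fell by 5.04 ± 0.55 SE on the log2 scale with the 4 libraries (adjusted p = 0.034, edgeR). Adamts3 was at 18.6, 11.5 and 13.3 in WT and 52.3, 17.7 and 35.2 in KO, and rose by log2 1.54 ± 0.35 SE in the same fit (adjusted p = 0.046). Adamts2 was at 9.27, 4.44 and 4.32 in WT and 10.8, 7.18 and 13.1 in KO, with overlap. It was not called in that fit (log2 0.79 ± 0.43 SE, adjusted p = 0.20, edgeR). KO 2 was within the WT range for Adamts2 and Adamts3 and below it for Adamts14.

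Among cross-linking enzymes, Loxl3 was at 35.9, 53.4 and 52.8 CPM in WT and 15.9, 43.4 and 16.6 in KO. It alone of 5 fell with the 4 libraries, against 13.9% of all genes (log2 -1.45 ± 0.25 SE, adjusted p = 0.034, edgeR). Loxl2, at 1.84, 1.85 and 6.65 in WT and 0.908, 3.57 and 0.779 in KO, and Loxl1, at 3.44, 2.33 and 4.32 in WT and 3.803, 3.39 and 3.63 in KO, overlapped. The collagen receptors Ddr2 and Itga2 had wide gaps. Ddr2, a receptor tyrosine kinase for fibrillar collagen, was at 164, 274 and 222 in WT and 26.2, 170 and 24.2 in KO, with KO 2 within the WT range. Itga2, an integrin chain, was at 2.64, 5.18 and 3.92 in WT and 0.397, 1.45 and 0.260 in KO, with KO 2 below WT. They fell by 3.11 ± 0.31 and 3.54 ± 0.57 SE on the log2 scale (adjusted p = 0.034 each, edgeR, 4 libraries), whereas the mean of Itga11, another collagen-binding integrin chain, was higher in KO (2.02, 1.53 and 2.48 in WT, 3.803, 2.56 and 4.41 in KO).

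All 5 basement membrane partners had a lower mean in KO. Hspg2, which encodes perlecan, was at 38.4, 57.8 and 67.0 CPM in WT and 19.7, 45.6 and 14.4 in KO, and fell by 1.49 ± 0.29 SE on the log2 scale with the 4 libraries (adjusted p = 0.038, edgeR). Pxdn, which encodes the peroxidase that cross-links type IV collagen, was at 131, 155 and 132 in WT and 119, 115 and 117 in KO, a small gap without overlap (log2 -0.25 ± 0.13 SE over all 6 and -0.22 ± 0.14 without KO 2, adjusted p = 0.22 and 0.21, edgeR). Nid1 (nidogen-1) and Sparc, a collagen-binding matrix protein, were the other partners called lower with the 4 libraries, as were 13.9% of all genes. Both were at an unadjusted p under 0.05 over all 6.

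**Figure D5:**
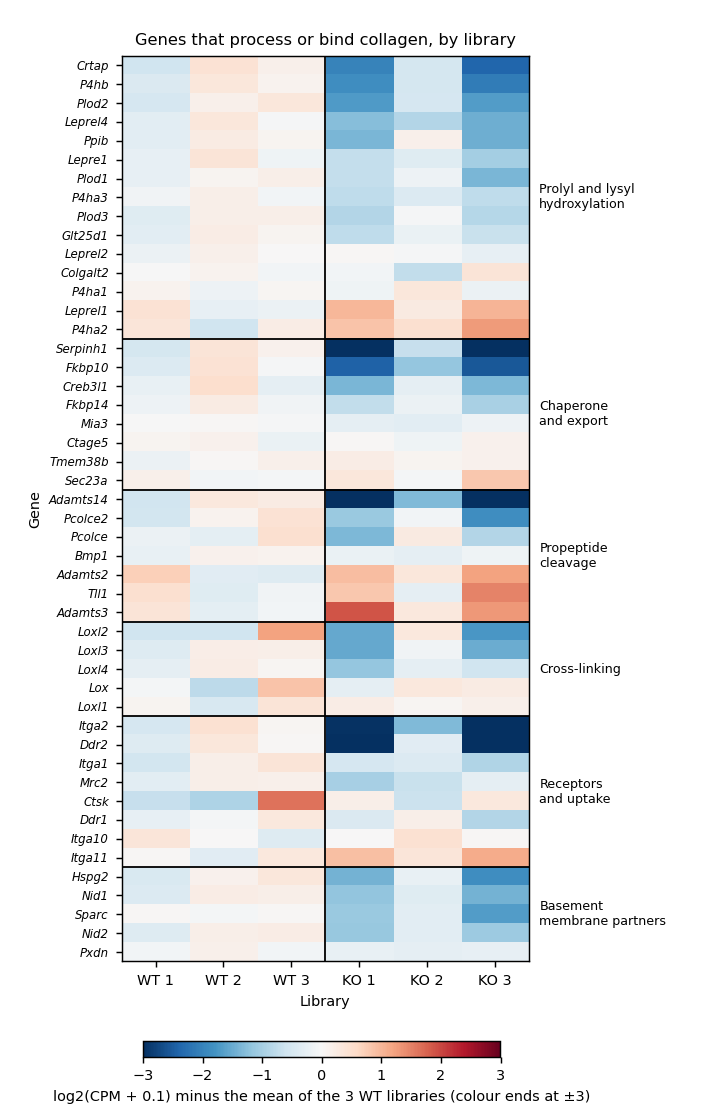
The 48 genes that process or bind collagen (rows, by class and sorted by fold change) in each library (columns), as log2(CPM + 0.1) minus the mean of the 3 WT libraries. Blue marks lower values, and KO 1 and KO 3 are blue for most rows, 29 of the 48 genes lying below every WT library in both (40.4% of all genes do).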

How the data were processed

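RNA-seq was made from tumors of mG7080 cells in WT and Esm1 KO hosts. The authors deposited raw counts of reads per gene (HTSeq in the methods, on RefSeq genes) and FPKM, made by the authors per gene length and library. The methods name STAR, hg38 and the Ovation Ultralow kit, whereas the submitters' processing notes and labels name mm10, CASAVA 1.8.2 and NEBNext Ultra, and all genes are mouse genes. The table leaves out genes counted in fewer than 4 libraries or with no value of 5 or more. The deposited fold changes, p-values and normalized values of the authors were not used.

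Counts were fitted with edgeR 4.0.16 in R 4.3.3 (filterByExpr with minimum count 10 and total 15, TMM, quasi-likelihood F test, Benjamini-Hochberg over all genes tested, threshold 0.05), over all 6 libraries and over WT 1, WT 2, KO 1 and KO 3. Groups followed the labels. Other settings tried were upper quartile or RLE scaling, dropping the filter, a mean count of 10, DESeq2 1.42.0, limma-voom (limma 3.58.1), the exact test, a replicate block and each library left out. CPM used TMM factors of all 6 libraries. Counting floors cover counting error only. Code was tested on simulated data.

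The members and lists were chosen with earlier results of these data known. Genes named with values were the 3 highest per length, the 3 largest and the 3 smallest fold changes of each group, genes called in either fit (at most 30 collagens and 12 processing genes), otherwise the extremes of each processing class, and genomic neighbours. Positions are from GRCm38 (GENCODE) and upstream windows from RefSeq. Gly-X-Y runs were read from translated GENCODE coding sequences.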

Additional observations from a re-analysis of the deposited data

How the results depend on the processing

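Over all 6 libraries, 0 collagen genes and 0 processing genes were called by the edgeR quasi-likelihood test under RLE scaling, upper quartile scaling, no filter, a mean count filter and limma-voom. DESeq2 called 8 collagen genes and 3 processing genes (7.31% of all genes), and the exact test 0 and 2 (0.748% of all genes). Leaving out each library in turn gave 0 to 22 collagen genes and 0 to 29 processing genes, the highest without KO 2 and 0 without any of the other 5. Of all genes, 8594 of 16279 passed without KO 2 and 0 without any of the other 5. With WT 1, WT 2, KO 1 and KO 3, where 9 collagen genes and 16 processing genes were called, DESeq2 gave 19 and 25 and the exact test 21 and 25. Of all 16183 genes tested with these 4 libraries, 2708 passed in the quasi-likelihood test, 5839 in DESeq2 and 6212 in the exact test. Leaving out each of these 4 in turn gave 1 to 23 collagen genes and 3 to 29 processing genes, lowest without KO 3 and highest without WT 1, and without KO 1 the counts were 5 and 6. The cause of these differences between tools was not tested.

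The replicate block over all 6 libraries gave 0 collagen genes and 0 processing genes. The replicate numbers were not treated as pairs, because the deviations of same-numbered libraries correlated at 0.549 (WT 1 and KO 1), 0.594 (WT 2 and KO 2) and -0.21 (WT 3 and KO 3), and WT 3 correlated best with KO 2.

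Directions that turned when a library was left out had ranges around 0 on the log2 scale. Over all 6 these were Col4a1 (-0.41 to 0.058), Col11a2 (-0.35 to 0.52), Col16a1 (-0.68 to 0.25), Col18a1 (-2.39 to 0.053), Col1a1 (-0.015 to 0.69) and Loxl1 (-0.11 to 0.34). With the 4 libraries they were Col3a1 (-1.64 to 0.17), Col4a1 (-0.38 to 0.15), Col5a2 (-0.55 to 0.32) and Col11a2 (-0.52 to 0.66), and Col11a2 was also at 0.039 under limma-voom. Of the fits of single named genes with other scaling, filter or tool, 419 over all 6 and 350 with the 4 libraries kept direction and side of the threshold, and 13 and 27 newly passed it. With the 4 libraries, 33 fits that left out a library no longer passed. Scaling moved the median over all genes by less than 0.1, and the split of hosts rests on 2 KO libraries apart from KO 2.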
